A study of Homo sapiens with 12 samples.

Results

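Genes for the SR and hnRNP families of splicing factors were followed through EGF stimulation in HCC70 cells, a human basal-like breast cancer line. The set holds 52 of the 26365 gene symbols in the deposited table. It takes every symbol that begins with SRSF or with HNRNP followed by a letter or digit, plus TRA2A, TRA2B, CLK1, CLK2, CLK3, CLK4, PTBP1, RBM39 and SON. By role these are 12 SR proteins, 4 SR-related factors (TRA2A, TRA2B, RBM39, SON), 4 CLK kinases, 21 hnRNP proteins with PTBP1 among them, and 11 pseudogenes, antisense RNAs, read-through genes and near-identical copies. Of the 52, 42 were abundant enough to test, namely 11 SR proteins, all 4 SR-related factors, all 4 kinases, all 21 hnRNP proteins and 2 of the last class. The other 10 (HNRNPA1P10, HNRNPA1P33, HNRNPA3P1, HNRNPCL1, HNRNPCL2, HNRNPCL3, HNRNPCL4, HNRNPKP3, HNRNPUL2-BSCL2 and SRSF12) had at most 12.6 normalized counts in any library.

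The cells carried a stable shRNA, either one targeting LAD1 (shLAD1 cells) or a scramble control (scramble cells). LAD1 encodes ladinin-1, a filamin binder per the title of the series. After a night without serum they were given 50 ng/ml EGF for 40 or 240 min, or collected at 0 min without EGF. This gave 6 groups, shLAD1 and scramble cells at 0, 40 and 240 min, of 2 poly-A RNA libraries each, numbered 1 and 2. The labels name a single shRNA against LAD1 and no library without EGF at 40 or 240 min. An effect of LAD1 loss therefore cannot be told apart from another effect of that shRNA, nor an effect of EGF from the time passed.

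SR proteins bind exonic sequences through RNA recognition motifs and recruit the spliceosome through a domain rich in arginine and serine, the RS domain. CLK kinases in the nucleus and SRPK kinases phosphorylate that domain, which sets where SR proteins go and how active they are, and in other human cells EGF signalling is known to reach SR proteins through AKT and SRPK kinases. hnRNP proteins coat nascent RNA and often act against SR proteins at the same exons. Many SR, TRA2 and hnRNP genes limit their own amount through unproductive splice forms, which counts per gene, as used here, do not tell apart from productive ones.

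Libraries held 12428618 to 16721013 reads. LAD1 was lower in shLAD1 cells by a log2 fold change of -2.39 ± 0.08 (limma, adjusted p = 2.28e-06), and the immediate early gene FOS had 13149 to 16135 normalized counts at 40 min against 269 to 349 at 0 min. All 7 basal breast markers were present (summed level 54123 to 122861 normalized counts), while of the 3 luminal markers the hormone receptor genes ESR1 (18 to 29) and PGR (at most 1.03) were low and the receptor gene ERBB2 was not. ERBB2 had 2330 to 2492 normalized counts at 0 min, 2251 to 2566 at 40 min and 1520 to 1776 at 240 min, and its part in the changes at 240 min was not tested. The fibroblast gene DCN was at 0 and the leukocyte gene PTPRC at most 1.11 in every library, although COL1A1 (243 to 895) and CD68 (741 to 1577) were detected. In bulk RNA a change in the share of cells and a change in RNA per cell cannot be told apart. Libraries of the same number deviated together from their group means, most of all within an shRNA. A fit with the number as a block is therefore given where it changes a call, while the main fit has no block.

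Levels below are normalized counts, which are reads divided by a size factor per library. Changes are log2 fold changes of the normalized count + 1, averaged over both kinds of cells where EGF times are compared, ± the standard error of a limma-trend fit with 2 libraries in each group. Genes were called at an adjusted p under 0.05 over the 13950 genes tested. Per kilobase of exon, HNRNPK (3473 normalized counts per kb), HNRNPA2B1 (3133) and HNRNPAB (2884) were the most abundant members. SRSF2 (1342), SRSF1 (1315) and SRSF4 (1229) led the SR proteins on the same per kb scale, although 34.7% of SRSF2 exonic sequence overlaps MFSD11, and 41.2% of that of SRSF9 overlaps GATC, on the other strand, and the use of strand in counting is not given in the sources used here. CLK2 (411 per kb) was the most abundant kinase and CLK4 (29.6 per kb) the least. HNRNPA1 (30.9 per kb), SRSF10 (12.2 per kb) and HNRNPH2 (10.8 per kb) have near-identical copies or read-through partners, so their counts are uncertain.

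After 240 min of EGF, with the deposited size factors, 29 of the 42 members tested were above their 0 min level, against 24 when upper-quartile factors were used and 21 under total-count scaling. With the deposited factors 15 rose and 1 fell (35.7% and 2.38%), whereas 18.7% of all genes tested were called higher and 16.3% lower in this comparison. The 42 members had a median log2 change of 0.12, against -0.02 over all genes tested. SRSF7 changed most, by 52.6%, and the other 14 that rose did so by 8.84% (SON) to 44.4% (HNRNPAB). The rises included 5 of 11 SR proteins, 9 of 21 hnRNP proteins and 1 of 4 SR-related factors, and 0 of 4 CLK kinases passed. Upper-quartile factors gave 7 members higher and 7 lower, and total-count scaling 6 higher and 10 lower.

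**Figure D1:**
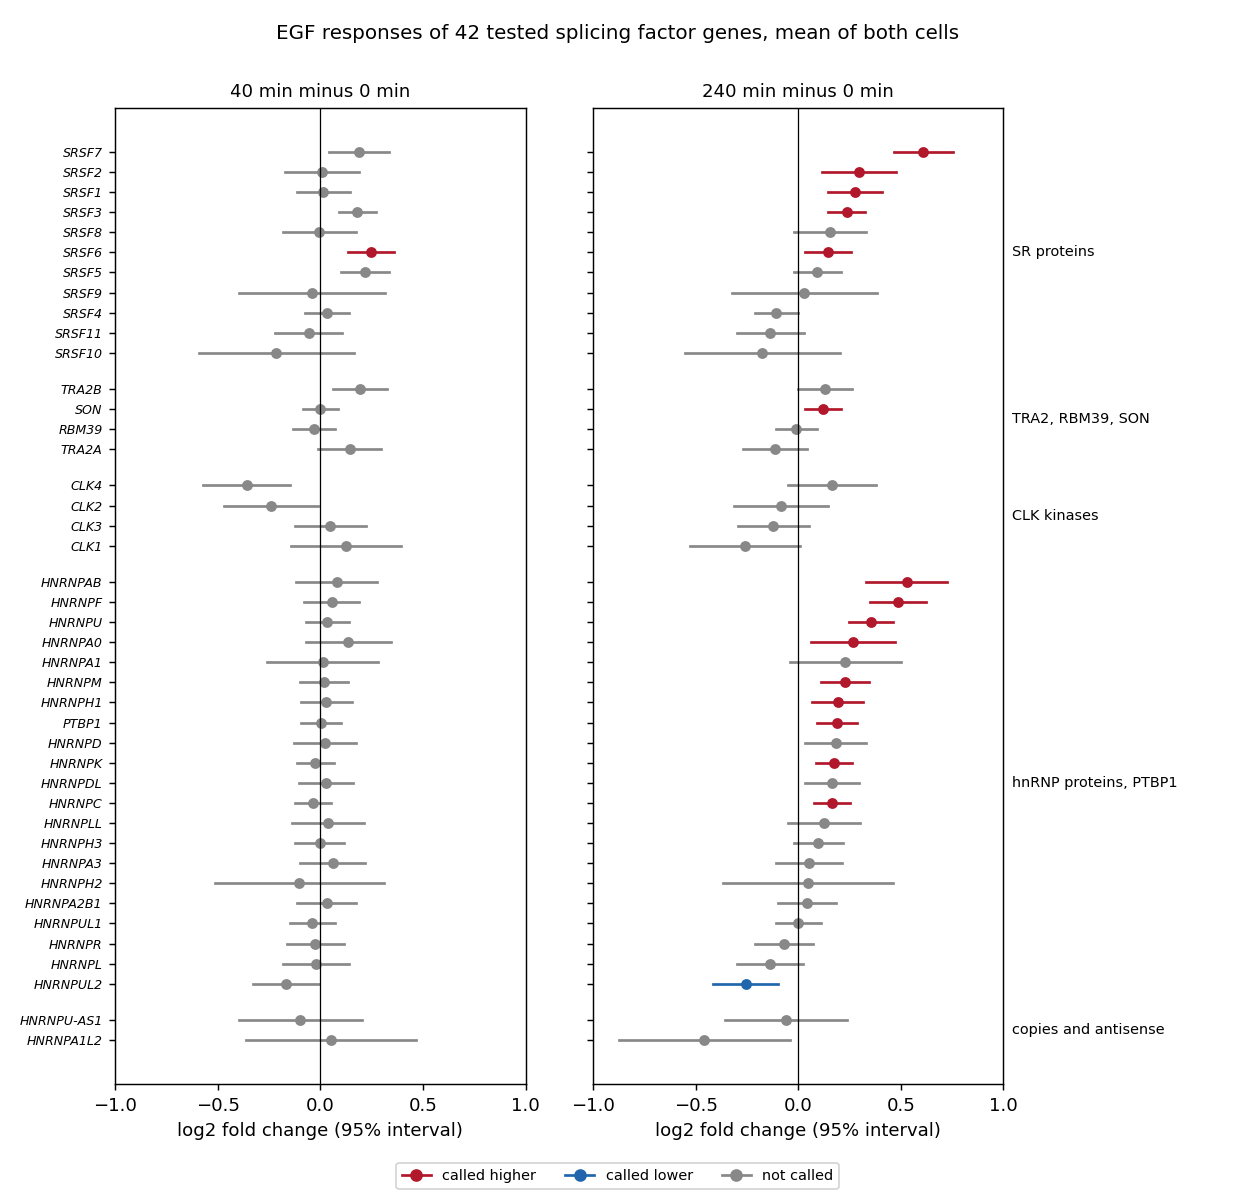
Log2 fold change (x axis, no unit) with its 95% interval of each of the 42 tested members at 40 min (left) and 240 min (right) relative to 0 min of EGF, averaged over shLAD1 and scramble cells (4 libraries per time); rows are genes grouped by role, and colour shows the call at adjusted p under 0.05. At 40 min SRSF6 alone is called, and at 240 min 15 members are called higher and HNRNPUL2 lower with the deposited size factors (7 and 7 under upper-quartile scaling, 6 and 10 under the total-count one).

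SRSF7, an SR protein that also takes part in mRNA export, was raised most. Its normalized counts were 1807 and 1708 at 0 min, 2058 and 1966 at 40 min and 2700 and 2847 at 240 min in shLAD1 cells, and 1689 and 1846 at 0 min, 1859 and 2156 at 40 min and 2486 and 2736 at 240 min in scramble cells. All 4 libraries at 240 min were above all those at 0 and 40 min, and the 40 min libraries were themselves above the 0 min ones. At 240 min the change from 0 min was 0.61 ± 0.06 (adjusted p = 0.000126), with 0.66 in shLAD1 cells and 0.56 in scramble cells.

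SRSF1, the prototype of the family, had 3645 and 3756 at 0 min, 3854 and 3792 at 40 min and 4357 and 4647 at 240 min in shLAD1 cells, and 3945 and 4334 at 0 min, 3908 and 4267 at 40 min and 4719 and 5287 at 240 min in scramble cells. Its 0 and 40 min values overlapped, and its 240 min values lay above both, by 0.28 ± 0.06 (adjusted p = 0.00523) relative to 0 min. SRSF3, the smallest SR protein, had 4295 and 4270 at 0 min, 4702 and 4899 at 40 min and 5005 and 5194 at 240 min in shLAD1 cells, and 4287 and 4259 at 0 min, 4797 and 4977 at 40 min and 5054 and 4908 at 240 min in scramble cells. SRSF3 was thus already higher at 40 min in every library and stayed so, with 0.24 ± 0.04 (adjusted p = 0.00185) at 240 relative to 0 min. SRSF2, which stays in the nucleus rather than shuttling, rose by 0.30 ± 0.08 (adjusted p = 0.0177), and SRSF6 by 0.15 ± 0.05 (adjusted p = 0.0464). The SRSF2 call was kept in 16 of 22 alternatives and lost with both upper-quartile factors and total-count scaling. Its 0 and 240 min libraries overlapped. The SRSF6 call was kept in 5 of 22 alternatives, and over the 22 its lowest value was 0.022. The other tested SR proteins were not called at 240 min, with changes between -0.17 and 0.16, SRSF5 at 0.09 ± 0.05 among them.

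**Figure D2:**
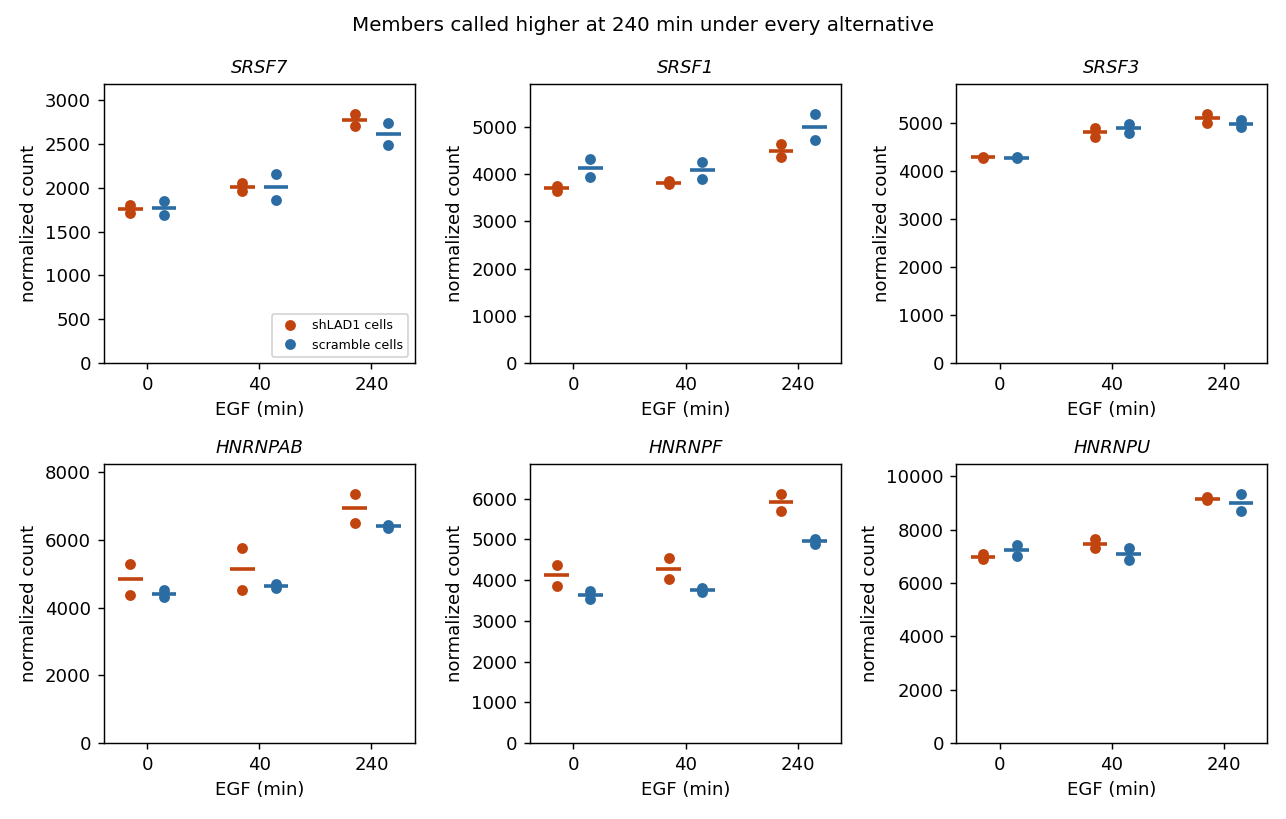
Normalized counts (y axis, from 0) of SRSF7, SRSF1, SRSF3, HNRNPAB, HNRNPF and HNRNPU at 0, 40 and 240 min of EGF (x axis) in shLAD1 cells (left of each pair) and scramble cells (right); points are libraries and bars the means of 2. In each of the 6 genes the 4 libraries at 240 min lie above the 4 at 0 min, and SRSF7 and SRSF3 are also above their 0 min values at 40 min.

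Among hnRNP genes HNRNPAB, HNRNPF and HNRNPU were raised most. HNRNPAB, which binds and helps to transport mRNA, had 5287 and 4387 at 0 min, 5762 and 4529 at 40 min and 7359 and 6495 at 240 min in shLAD1 cells, and 4509 and 4303 at 0 min, 4687 and 4594 at 40 min and 6445 and 6354 at 240 min in scramble cells. Its change was 0.53 ± 0.09 (adjusted p = 0.00162), and in both kinds of cells the library numbered 1 was the higher at each time. HNRNPF, which binds runs of G, had 4382 and 3855 at 0 min, 4539 and 4027 at 40 min and 6118 and 5708 at 240 min in shLAD1 cells, and 3739 and 3531 at 0 min, 3814 and 3720 at 40 min and 5017 and 4893 at 240 min in scramble cells. The 240 min libraries stood apart from the others in both kinds of cells, by 0.49 ± 0.06 (adjusted p = 0.00033) relative to 0 min. HNRNPU, known also as scaffold attachment factor A, had 6892 and 7078 at 0 min, 7628 and 7310 at 40 min and 9113 and 9207 at 240 min in shLAD1 cells, and 6999 and 7439 at 0 min, 6841 and 7303 at 40 min and 8683 and 9337 at 240 min in scramble cells. Its 0 and 40 min values overlapped, and the 240 min change was 0.36 ± 0.05 (adjusted p = 0.000474).

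Smaller rises were seen in 6 other hnRNP genes. They were HNRNPA0 (0.27), HNRNPM (0.23), HNRNPH1 (0.19, named after its values were seen), PTBP1 (0.19), HNRNPK (0.18) and HNRNPC (0.17), with adjusted p of 0.00787 to 0.0461. The HNRNPA0 call was kept in 9 of 22 alternatives. PTBP1 is the polypyrimidine tract binding protein, a splicing repressor, while HNRNPK binds C-rich and HNRNPC U-rich RNA. PTBP1 had 7359 and 6978 at 0 min, 7204 and 7285 at 40 min and 8206 and 7610 at 240 min in shLAD1 cells, and 6898 and 6970 at 0 min, 6815 and 6957 at 40 min and 8285 and 8080 at 240 min in scramble cells. The 240 min libraries lay above the 0 min libraries for PTBP1, HNRNPK, HNRNPC and HNRNPH1, and overlapped them for HNRNPA0 and HNRNPM. HNRNPUL2, a relative of HNRNPU, was the 1 member to fall, with 834 and 990 at 0 min, 785 and 797 at 40 min and 751 and 753 at 240 min in shLAD1 cells, and 886 and 1038 at 0 min, 856 and 888 at 40 min and 818 and 806 at 240 min in scramble cells. Its change was -0.26 ± 0.07 (adjusted p = 0.0208), with -0.13 in the libraries numbered 1 and -0.38 in those numbered 2. HNRNPD, at 0.18 ± 0.07 with adjusted p = 0.0597, and HNRNPA1, at 0.23 ± 0.12 with adjusted p = 0.171, did not pass, although each was higher in 4 of 4 comparisons of libraries with the same shRNA and number. HNRNPA2B1, with 16663 to 20829 normalized counts over all libraries, stood at 0.04 ± 0.06. HNRNPU-AS1, a transcript antisense to HNRNPU, and HNRNPA1L2, a copy of HNRNPA1, were at -0.06 ± 0.13 and -0.46 ± 0.18 and were not called. Both were named after their values were seen, and HNRNPU-AS1 may share reads with HNRNPU.

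Of the SR-related factors SON, a scaffold of nuclear speckles, rose by 0.12 ± 0.04 (adjusted p = 0.0353), a call kept in 7 of 22 alternatives. RBM39, a relative of the splicing factor U2AF, had 2911 and 2919 at 0 min, 2996 and 2775 at 40 min and 2990 and 2894 at 240 min in shLAD1 cells, and 3009 and 2946 at 0 min, 2792 and 2967 at 40 min and 2953 and 2881 at 240 min in scramble cells. These values overlapped between times, with a change of -0.01 ± 0.04. TRA2B was at 0.13 ± 0.06 and TRA2A at -0.11 ± 0.07, and neither was called relative to 0 min.

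The 240 min result was repeated under 2 other scalings, because the libraries' size factors set the level against which all changes are read. Of the called members 50% were higher under the upper-quartile scaling and 37.5% under the total-count one, against 93.8% with the deposited size factors. Over all genes 2019 were called higher and 3170 lower with upper-quartile factors, 1796 and 3882 with total counts, and 2610 and 2275 with the deposited factors. The median change of all genes was -0.02 with the deposited factors, -0.10 with upper-quartile factors and -0.14 with total counts, the last a shift of -0.12. Relative to that median, the members' median lay 0.14 higher under each scaling, and 30 of 42 members were above it. A change of scaling moves all genes by nearly the same amount, so this gap was bound to stay and tests nothing about the scaling. SRSF7, HNRNPAB, HNRNPF, HNRNPU, SRSF1 and SRSF3 were called higher under all 3 scalings. CLK1, HNRNPL, HNRNPUL2, SRSF4, SRSF11, TRA2A and HNRNPA1L2 were called lower with both alternatives, of which the deposited factors call only HNRNPUL2; HNRNPL, SRSF4, SRSF11 and HNRNPA1L2 were named after their values were seen. SON was at -0.0023 with total-count scaling.

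**Figure D3:**
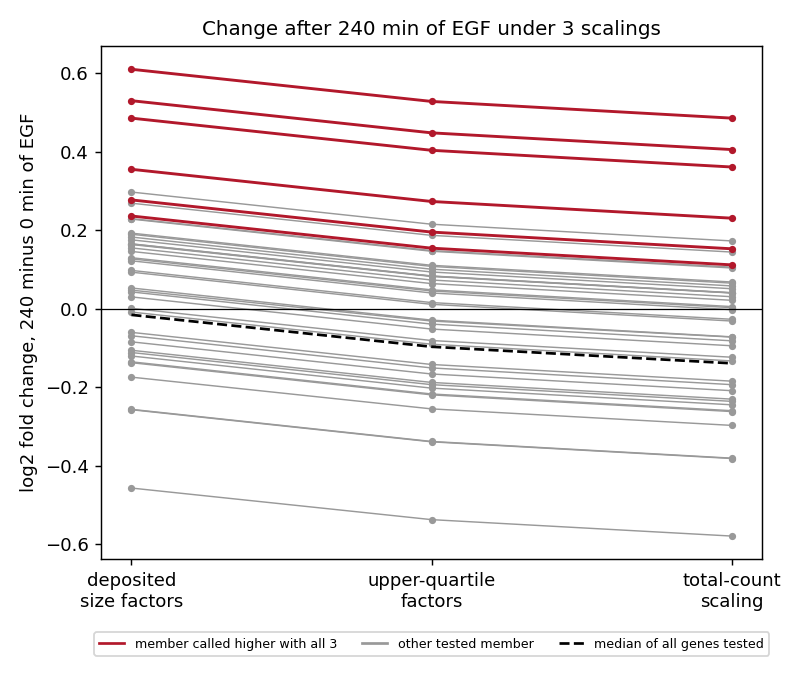
Log2 fold change between 240 and 0 min of EGF (y axis, no unit) of the 42 tested members with the deposited size factors, upper-quartile factors and total-count scaling (x axis); each line is a gene and the dashed line the median of all genes tested. The lines shift down together, with the median of all genes at -0.02, -0.10 and -0.14, and the 6 members in red are called higher with all 3.

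Leaving out single libraries also moved the count at 240 min, which ran from 10 to 16 called members over the 12 libraries and was 10 without scramble 240 min replicate 2. With the number as a block 17 members were higher and 3 lower, HNRNPD being called higher and CLK1 and TRA2A lower in addition. A block within each shRNA gave 23 higher and 7 lower, with HNRNPA1, SRSF5 and TRA2B also higher and HNRNPL lower among the named genes. Calls rose over all 13950 genes too, from 2610 higher and 2275 lower to 3420 and 3135 with the number as a block. They were 4209 and 4134 with the block within each shRNA. All 16 called members had the same direction in the libraries numbered 1 and in those numbered 2, for instance SRSF7 with 0.57 in the libraries numbered 1 and 0.65 in those numbered 2. The 16 were called from these same libraries, so their agreement is no separate support. Over all 42 members 40 had the same direction under both numbers, and the share over all genes was not computed.

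After 40 min of EGF SRSF6 was the only member called. It had 1706 and 1841 at 0 min, 2161 and 2128 at 40 min and 1980 and 2078 at 240 min in shLAD1 cells, and 1878 and 2000 at 0 min, 2169 and 2334 at 40 min and 2058 and 2089 at 240 min in scramble cells. All 4 libraries at 40 min were above the 4 at 0 min, and in each kind of cell the 240 min values lay between. Its change was 0.25 ± 0.05 (adjusted p = 0.0422), that is 18.5%, and 1.74% of all genes tested were called higher and 0.136% lower in this comparison. The call was lost without any 1 of the 12 libraries, and it was also lost with total-count scaling, without a filter on low values and when only these times were fitted.

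Several other SR and TRA2 genes had higher values at 40 min without passing the test. SRSF5, described in rat liver cells as a growth-induced gene, had 2311 and 2378 at 0 min, 2684 and 2820 at 40 min and 2386 and 2640 at 240 min in shLAD1 cells, and 2413 and 2506 at 0 min, 2757 and 2916 at 40 min and 2537 and 2693 at 240 min in scramble cells. Its change was 0.22 ± 0.05 (adjusted p = 0.088), and its 40 min libraries stood above those of both other times in each kind of cell. TRA2B, a splicing activator that binds GA-rich exonic RNA, had 3019 and 2853 at 0 min, 3755 and 3224 at 40 min and 3365 and 3258 at 240 min in shLAD1 cells, and 2970 and 3064 at 0 min, 3214 and 3434 at 40 min and 3098 and 3310 at 240 min in scramble cells. The 40 min libraries exceeded those at 0 min, with 0.19 ± 0.06 (adjusted p = 0.252). SRSF3, at 0.18 ± 0.04 with adjusted p = 0.0721, and SRSF7, at 0.19 ± 0.06 with adjusted p = 0.353, were also higher at 40 min in 4 of 4 comparisons of libraries with the same shRNA and number. SRSF1 (0.01 ± 0.06), SRSF2 (0.01 ± 0.08) and all 21 hnRNP genes, at -0.17 to 0.14, were not called.

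With the replicate number as a block, SRSF3, SRSF5 and SRSF6 were called higher at 40 min, and DESeq2 on reads recovered from the deposited values called the same 3. A block within each shRNA called 7 members higher (these 3 with SRSF7, TRA2A, TRA2B and HNRNPA0) and 3 lower (CLK2, CLK4 and HNRNPUL2). Over all 13950 genes the main fit called 243 higher and 19 lower, the block 410 and 70, and DESeq2 295 and 24. The block within each shRNA called 845 genes higher and 286 lower.

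Between 40 and 240 min 13 members rose and 2 fell, whereas 17% of all genes tested were called higher and 15.1% lower. With upper-quartile factors the split was 8 and 8, and with total-count scaling 8 and 7. Over all 13950 genes those scalings called 1769 higher and 2887 lower, and 1750 and 2910. This comparison shares its 240 min libraries with the one above and its 40 min libraries with that of 40 and 0 min, and those share the 0 min libraries, so the 3 are not independent. The rises were again led by HNRNPAB (0.45 ± 0.09), HNRNPF (0.43 ± 0.06), SRSF7 (0.42 ± 0.06) and HNRNPU (0.32 ± 0.05), after the kinase CLK4. In all, 8 of 21 hnRNP proteins, 3 of 11 SR proteins, SON and CLK4 rose. The 2 that fell were CLK1 and TRA2A. SRSF5 (-0.12 ± 0.05), SRSF6 (-0.10 ± 0.05) and SRSF3 (0.06 ± 0.04) were not called between these times. The 27 members not called ranged from -0.51 to 0.22. With the number as a block 16 members were higher and 5 lower, with HNRNPA0 and HNRNPD added among the higher and SRSF5 among the lower. A block within each shRNA gave 19 higher and 8 lower, CLK2 also being higher and SRSF6, CLK3 and HNRNPL lower. Over all 13950 genes the main fit called 2368 higher and 2111 lower between these times. The number as a block called 3197 and 2982, and the block within each shRNA 4090 and 3937.

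CLK kinases did not move as a group. CLK4 had 113 and 126 at 0 min, 98.5 and 93.3 at 40 min and 134 and 135 at 240 min in shLAD1 cells, and 125 and 127 at 0 min, 102 and 88.5 at 40 min and 147 and 135 at 240 min in scramble cells. In both kinds of cells its lowest values were at 40 min and its highest at 240 min. The change was -0.36 ± 0.09 (adjusted p = 0.149) at 40 relative to 0 min, which did not pass, and 0.52 ± 0.09 (adjusted p = 0.00281) at 240 relative to 40 min, which did. CLK4 kept that last call in all 22 alternatives. It rests on 1423 reads of CLK4 over the 12 libraries.

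CLK1, whose kinase acts on SR proteins in nuclear speckles, ran the other way, with 613 and 753 at 0 min, 753 and 738 at 40 min and 544 and 604 at 240 min in shLAD1 cells, and 560 and 744 at 0 min, 639 and 769 at 40 min and 483 and 593 at 240 min in scramble cells. Its 240 min libraries were below all those at 40 min, with a change of -0.38 ± 0.12 (adjusted p = 0.0354), and the call held in 16 of 22 alternatives. In every group of scramble cells the library numbered 2 was the higher, and the 0 and 40 min values overlapped. CLK2 had 926 and 1027 at 0 min, 883 and 798 at 40 min and 901 and 990 at 240 min in shLAD1 cells, and 834 and 1038 at 0 min, 698 and 860 at 40 min and 786 and 931 at 240 min in scramble cells. CLK2 was lower at 40 min in 4 of 4 comparisons of libraries with the same shRNA and number, at -0.24 ± 0.10 (adjusted p = 0.607). CLK3 was not called between any times in the main fit, with 0.05 ± 0.08 at 40 and -0.12 ± 0.08 at 240 relative to 0 min. Total-count scaling, also without a block, called it lower at 240 relative to 0 min (-0.24, limma adjusted p = 0.0322). Under that scaling 2 of the 4 kinases, CLK1 and CLK3, were called lower in this comparison, and 3882 of all 13950 genes.

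TRA2A, a relative of TRA2B, had 997 and 1097 at 0 min, 1128 and 1228 at 40 min and 946 and 1045 at 240 min in shLAD1 cells, and 1048 and 1163 at 0 min, 1146 and 1246 at 40 min and 946 and 1047 at 240 min in scramble cells. In both kinds of cells its mean was highest at 40 min, and the 240 min libraries lay below those at 40 min. The change between these times was -0.25 ± 0.07 (adjusted p = 0.0206), with -0.26 in the libraries numbered 1 and -0.24 in those numbered 2, and the call held in 18 of 22 alternatives.

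**Figure D4:**
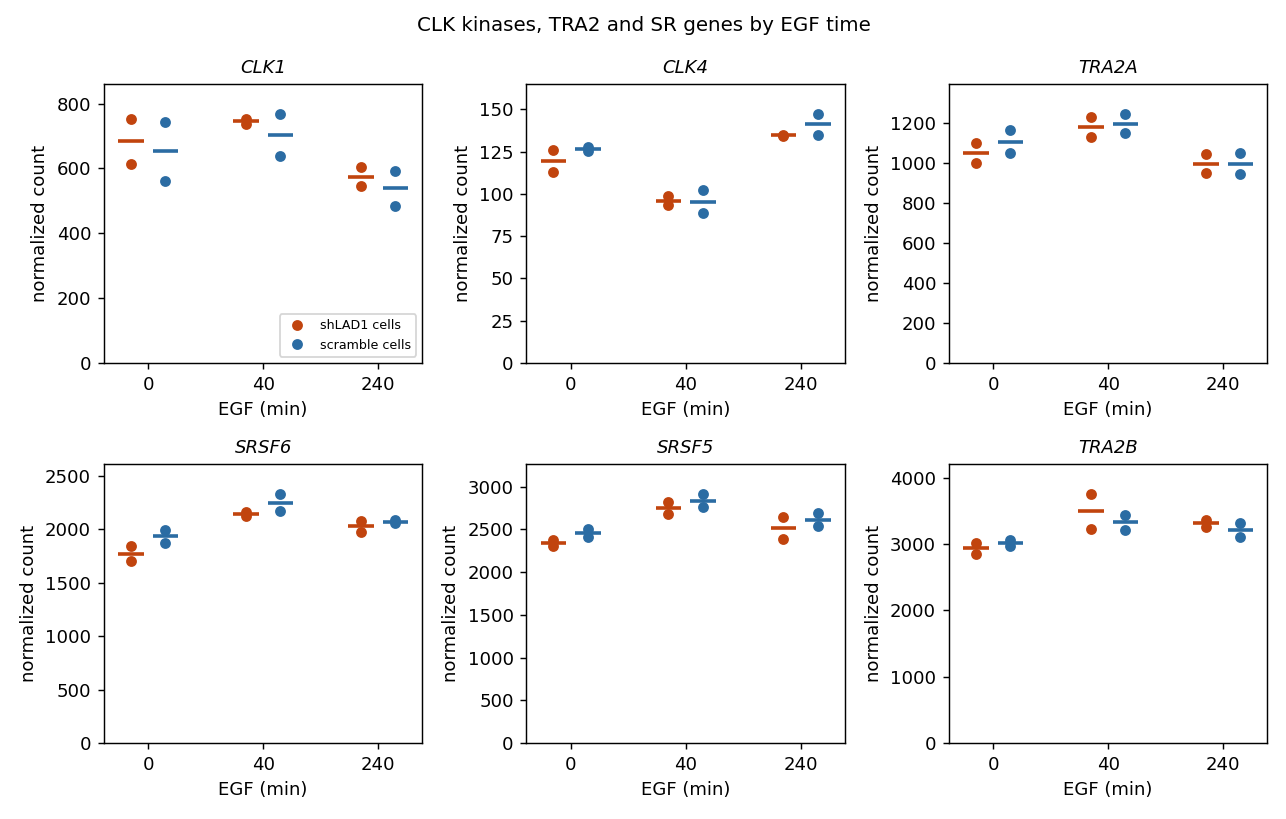
Normalized counts (y axis, from 0) of CLK1, CLK4, TRA2A, SRSF6, SRSF5 and TRA2B at 0, 40 and 240 min of EGF (x axis) in shLAD1 cells (left of each pair) and scramble cells (right); points are libraries and bars the means of 2. CLK4 dips at 40 min while SRSF6, SRSF5 and TRA2B are highest there, and the CLK1 and TRA2A libraries at 240 min lie below those at 40 min.

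Promoters of the most raised SR and hnRNP gene and of the kinases with opposite late courses are printed to show the sequence at their starts. They run from 250 bases before to 50 after the RefSeq start (RefSeq, GRCh38.p14), and capitals mark TGACG (the core of a cAMP response element), CACGTG (an E-box), CCAAT and TATAAA on either strand. RefSeq lists 2 promoters each for SRSF7 and CLK1, and 1 each for HNRNPAB and CLK4. Where 2 are listed, the one with the most of these matches was picked, so its matches were favoured by the choice. The SRSF7 stretch is chr2:38751312-38751611 and the CLK1 stretch chr2:200864609-200864908, both on chromosome 2, minus strand. The HNRNPAB stretch is chr5:178204283-178204582, plus strand, and the CLK4 stretch chr5:178627001-178627300, minus strand, both on chromosome 5.
SRSF7: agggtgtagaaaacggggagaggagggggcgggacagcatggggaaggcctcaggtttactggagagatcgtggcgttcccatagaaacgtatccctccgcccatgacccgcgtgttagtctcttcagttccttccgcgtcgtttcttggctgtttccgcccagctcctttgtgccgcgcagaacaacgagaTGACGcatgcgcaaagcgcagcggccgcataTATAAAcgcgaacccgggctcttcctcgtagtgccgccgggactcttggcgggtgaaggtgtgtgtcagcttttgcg
HNRNPAB: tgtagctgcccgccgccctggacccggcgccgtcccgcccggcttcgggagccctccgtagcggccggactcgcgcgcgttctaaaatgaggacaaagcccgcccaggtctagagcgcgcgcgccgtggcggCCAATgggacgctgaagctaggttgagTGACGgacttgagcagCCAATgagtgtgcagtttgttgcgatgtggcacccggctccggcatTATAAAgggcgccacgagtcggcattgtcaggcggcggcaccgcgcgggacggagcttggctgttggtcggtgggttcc
CLK4: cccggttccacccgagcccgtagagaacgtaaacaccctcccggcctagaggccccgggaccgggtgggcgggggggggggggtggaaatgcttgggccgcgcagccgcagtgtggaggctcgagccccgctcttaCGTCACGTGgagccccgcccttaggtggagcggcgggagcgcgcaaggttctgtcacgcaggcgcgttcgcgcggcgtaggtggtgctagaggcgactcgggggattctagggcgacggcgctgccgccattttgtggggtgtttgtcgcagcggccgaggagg
CLK1: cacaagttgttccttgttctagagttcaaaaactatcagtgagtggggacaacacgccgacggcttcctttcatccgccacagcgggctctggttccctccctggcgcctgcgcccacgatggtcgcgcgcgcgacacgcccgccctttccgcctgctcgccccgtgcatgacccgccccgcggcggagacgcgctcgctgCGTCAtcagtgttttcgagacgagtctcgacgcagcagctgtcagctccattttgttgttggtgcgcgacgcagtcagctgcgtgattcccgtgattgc
The printed stretches of SRSF7 and HNRNPAB each hold a TATAAA and a TGACG, and that of HNRNPAB also holds CCAAT at 2 places. Those of CLK4 and CLK1 each hold the reverse complement of TGACG, which in CLK4 overlaps a CACGTG.

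RefSeq lists 59 promoters for 42 of the 52 members. These 42 are not the same as the 42 tested, and include untested genes such as HNRNPCL4, HNRNPCL1 and SRSF12. TGACG was in 45.8% of them, against 24.6% of all 35116 listed promoters, and CCAAT in 47.5% against 34.6%. The E-box CACGTG was in 16.9% against 7.26%, and the GC box GGGCGG in 62.7% against 45%. TATAAA (10.2% against 11.5%) and the ETS core CCGGAAG (11.9% against 10.3%) were about as frequent as in all promoters. The whole cAMP response element TGACGTCA, which contains TGACG, was in 0 of the 59, against 1.85%. Counted per gene, 24 of the 42 members with a listed promoter had a TGACG, 25 a CCAAT, 29 a GGGCGG, 9 a CACGTG, 7 a CCGGAAG and 6 a TATAAA. Of the 14 raised members among them 9 had a TGACG, 10 a CCAAT, 10 a GGGCGG, 1 a CACGTG, 2 a CCGGAAG and 4 a TATAAA. These are letter matches on both strands, described without a test.

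The knockdown comparison, shLAD1 against scramble cells over the 3 times, asks whether splicing factor RNA differed with the shRNA. Few members did: HNRNPF was higher, and HNRNPM and HNRNPL were lower in shLAD1 cells. These 3 are 1 and 2 of 42, whereas 9.25% of all genes tested were called higher and 9.3% lower. The members' median change was -0.02 and that of all genes -0.00. The 39 members not called ranged from -0.14 to 0.22. With upper-quartile factors 1 member was higher and 4 were lower, SRSF1 and HNRNPC being the added ones. Over all 13950 genes those factors gave 1178 higher and 1428 lower.

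HNRNPF changed by 0.20 ± 0.05 (adjusted p = 0.0208) and was higher in shLAD1 cells in 6 of 6 comparisons of libraries at the same time and number. HNRNPM, a regulator of alternative splicing known from epithelial to mesenchymal transition, had 4020 and 3911 at 0 min, 4505 and 3933 at 40 min and 4823 and 4865 at 240 min in shLAD1 cells, and 4627 and 4919 at 0 min, 4532 and 4681 at 40 min and 5275 and 5448 at 240 min in scramble cells. Its shLAD1 value was the lower in 6 of 6 such comparisons, with a change of -0.18 ± 0.04 (adjusted p = 0.0198). HNRNPL, which binds CA repeats, had 4180 and 4152 at 0 min, 4261 and 4222 at 40 min and 3934 and 3978 at 240 min in shLAD1 cells, and 4683 and 5426 at 0 min, 4476 and 5192 at 40 min and 4075 and 4726 at 240 min in scramble cells. Its shLAD1 libraries were lower at every time, with a change of -0.20 ± 0.06 (adjusted p = 0.0413), and the change was -0.10 in the libraries numbered 1 and -0.31 in those numbered 2. Over all times, the ranges of shLAD1 and scramble libraries overlapped for HNRNPF and HNRNPM, and for HNRNPL the highest shLAD1 library (4261) exceeded the lowest scramble library (4075).

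**Figure D5:**
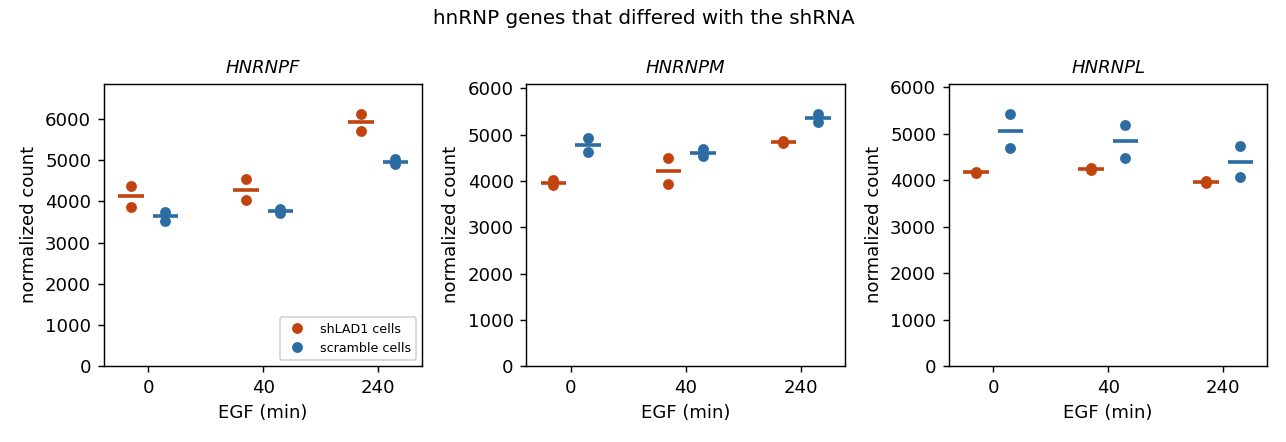
Normalized counts (y axis, from 0) of HNRNPF, HNRNPM and HNRNPL at 0, 40 and 240 min of EGF (x axis) in shLAD1 cells (left of each pair) and scramble cells (right); points are libraries and bars the means of 2. At each time the shLAD1 mean is above the scramble mean for HNRNPF and below it for HNRNPM and HNRNPL.

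These 3 calls rest on treating the 3 times as separate samples. With 1 mean per shRNA and number, which leaves 2 against 2, 0 members and 0 genes were called by limma (1798 genes at an unadjusted p under 0.05). No member was called without scramble 0 min replicate 2, scramble 40 min replicate 2, scramble 240 min replicate 2 or shLAD1 240 min replicate 1. With the number as a block 2 members were higher (HNRNPF and HNRNPA0) and 9 lower, the 9 including SRSF1, SRSF2, HNRNPA2B1, HNRNPC and HNRNPD. That fit called 2543 of all 13950 genes higher and 2491 lower, against 1290 and 1298 in the main fit. Without the block SRSF1 was at -0.14 ± 0.05 (adjusted p = 0.075) and HNRNPA2B1 at -0.14 ± 0.05 (adjusted p = 0.089). Summed markers of other cells were higher in shLAD1 than in scramble cells: 507 to 895 against 243 to 374 for the 3 fibroblast genes, nearly all of it COL1A1 with DCN at 0, and 1083 to 1578 against 741 to 1019 for the 3 leukocyte genes, nearly all of it CD68 with PTPRC at most 1.11. The 2 endothelial genes summed to 10.3 to 22.5 against 6.17 to 11.4. Their part in these differences was not tested.

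The 2 sets of shLAD1 libraries also differed from each other. KRT14, a basal keratin, had 520 to 560 normalized counts in shLAD1 libraries numbered 1 and 1558 to 1882 in those numbered 2, against 969 to 1218 in scramble cells. Of the 42 members, 22 had the same direction under both numbers, and the share over all genes was not computed. The change was above 0 for 23 members in the libraries numbered 1 and for 9 in those numbered 2. SRSF9, named after its values were seen, differed between the numbers in shLAD1 cells. There it had 1616, 1526 and 1548 normalized counts in the libraries numbered 1 and 1126, 1009 and 1184 in those numbered 2. Scramble cells had 1132 to 1210. In the authors' deposited table, whose contrast is not named and whose fold changes match shLAD1 over scramble cells at 0 min, 1 of 43 members with an adjusted p was under 0.05, HNRNPM at 0.0484.

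The responses to EGF were also compared between the shRNAs. limma called 0 of 42 members and 0 genes (0% in each direction) for the 40 min and the 240 min response, with 0 members and 99 and 133 genes at an unadjusted p under 0.05. edgeR, DESeq2 and the replicate block also called 0 members and 0 genes. A block within each shRNA called 10 genes higher and 1 lower at 40 min and 13 and 14 at 240 min, 0 of them members. The response of SRSF7 at 240 min differed by 0.10 (95% interval -0.19 to 0.38) between shLAD1 and scramble cells, that of HNRNPF by 0.08 (95% interval -0.19 to 0.35) and that of SRSF6 at 40 min by 0.06 (95% interval -0.16 to 0.28). These intervals include differences as large as the smaller EGF changes.

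Other splicing genes were read beside the set, from lists chosen with earlier results known. At 240 relative to 0 min 31.1% of the regulators, 20% of the core spliceosome genes and 35.7% of the decay genes below were called higher, against 18.7% of all genes, and 6.67%, 4.44% and 7.14% lower, against 16.3%. The spliceosome share called higher was thus near that of all genes. Of 45 other splicing regulators tested, 14 were higher and 3 lower at 240 relative to 0 min, with a median change of 0.07, but 10 and 4 under upper-quartile and 6 and 7 under total-count scaling, where the medians were -0.01 and -0.05. SFPQ, a paraspeckle protein, rose by 0.74 ± 0.06, SRPK1, a kinase of the RS domain, by 0.69 ± 0.08, and the RNA helicase DDX5 by 0.61 ± 0.05. Of 45 core spliceosome genes 9 were higher and 2 lower, with a median of 0.06, but 5 and 5, and 4 and 10, under those scalings. Among them the branch point binding protein SF1 rose by 0.51 ± 0.06, the helicase DHX15 by 0.48 ± 0.05 and the Sm protein SNRPD1 by 0.39 ± 0.06. Of 14 nonsense-mediated decay genes 5 were higher and 1 lower (3 and 1 under both scalings), among them SMG5 (0.39 ± 0.07) and the kinase SMG1 (0.37 ± 0.08). At 40 min DDX5 (0.31 ± 0.05, limma adjusted p = 0.0158) was the only gene of these lists called.

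Between 40 and 240 min 15, 7 and 4 genes of the regulator, spliceosome and decay lists were higher and 2, 2 and 1 lower; under the other scalings the regulators split 9 and 5, and 8 and 5. The shares called higher were 33.3%, 15.6% and 28.6%, against 17% of all genes. With the shRNA, 1 of the 45 regulators was higher and 5 lower in shLAD1 cells, SRPK1 at -0.26 ± 0.06 among those 5. The 5 are 11.1% and the 4 spliceosome genes that follow 8.89% of their lists, both near the 9.3% of all genes called lower. Of the 45 spliceosome genes 4 were lower, including SNRPA1 (-0.20 ± 0.05) and SF3B3 (-0.23 ± 0.07), and 0 higher. With upper-quartile factors 0 regulators were higher and 5 spliceosome genes lower. Of the 14 decay genes EIF4A3 (-0.26 ± 0.06) and CASC3 (-0.13 ± 0.04), both of the exon junction complex, were lower. These 2 are 14.3% of their list, against 9.3% of all genes called lower. With upper-quartile factors 3 decay genes were lower, and with total counts 1.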

How the data were processed

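Poly-A RNA of 12 libraries, 2 in each of 6 groups, was made into libraries (TruSeq v2), per the labels' protocols. STAR, DESeq2 and hg19 are named in the submitters' processing notes. For versions, counter, annotation, multi-mapping and strand what was used is not given in the sources used here. Each library column of the deposited table holds a signal that is a normalized count, the reads of a gene divided by a size factor. Reads recovered from it were whole, within 0.001, for 100% of values, and gave the depths. The authors also deposited a log2 fold change, a Wald score and p-values for 1 comparison, whose contrast the file headers do not name.

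Of 26365 genes, 20013 had a read and 13950 reached 10 normalized counts in 2 or more libraries. These were tested with limma-trend (limma 3.58.1, R 4.3.3, robust) on log2(normalized count + 1), which understates changes of low genes, with 1 mean per group over all 12 libraries and Benjamini-Hochberg adjustment over all genes tested. The design gave edgeR for raw counts. edgeR 4.0.16 (quasi-likelihood, TMM) on the recovered reads called 246 genes higher and 20 lower at 40 min and 2497 and 2340 at 240 min, and DESeq2 1.42.0 was a further alternative. The fits were tested on simulated data. Other alternatives were the scaling, filter, pseudocount (0.5 and 5), replicate blocks, fits of the compared times only and leaving out each library.

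Named members were up to 8 called with the largest rise and 8 with the largest fall in each comparison, plus 20 set genes; other lists gave up to 3 called genes with the smallest adjusted p, of which 2 are not reported here. The members and lists were chosen with earlier results of these data known. The labels do not say whether the numbers 1 and 2 mark separate cultures, so p-values reflect spread that may be only technical. Deviations from the group means of same-numbered libraries had r of 0.645 to 0.734 between groups sharing an shRNA (6 pairs) and 0.247 to 0.307 between the others (9 pairs). The numbers were therefore taken to pair the samples in the block fits and in comparisons of libraries with the same number. The main fit, with its calls and adjusted p, took no pairing. Replicates differed by more than counting noise (chi-square per degree of freedom 8.68 to 21.6). Gene lengths and overlaps came from GENCODE v29 (GRCh38) and promoters from RefSeq.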

Additional observations from a re-analysis of the deposited data

How the results depend on the processing

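Counts of called members over the alternatives were as follows. At 40 relative to 0 min the main count of 1 became 0 with total-count scaling, 0 without a filter on low values, 0 when only these times were fitted, 3 with DESeq2, 3 with 1 replicate block, 10 when it was set within each shRNA, and 0 to 0 over the 12 libraries left out. At 240 relative to 0 min the 16 became 30 when the block was set within each shRNA and 20 with 1 replicate block, and 10 to 16 with a library left out. At 240 relative to 40 min the 15 became 27 when the block was set within each shRNA and 21 with 1 replicate block, and 11 to 13 with a library left out. Between shLAD1 and scramble cells the 3 became 5 with upper-quartile factors, 5 with DESeq2, 11 with the replicate block, 0 with 1 mean per shRNA and number, and 0 to 4 with a library left out. The 2 comparisons of responses stayed at 0 to 0. Over all genes the block fits also called more, as given above. The cause of these changes was not tested. SON at 240 relative to 0 min stood at -0.0023 with total-count scaling. In 588 of the repeats of called values the call held, in 134 it was lost in the same direction, and among values not called 60 passed and 180 changed sign without passing. SRSF7, HNRNPAB, HNRNPF, HNRNPU, SRSF1 and SRSF3 kept their call at 240 relative to 0 min in all 22 alternatives, 6 of the 16 called, and 8 of 15 did so at 240 relative to 40 min. The other 10 of the 16, and the other 7 of the 15, lost their call in at least 1 alternative. With 2 libraries per group, changes as small as many of these may lie near the limit of detection, which was not computed.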
